A study of Homo sapiens with 4 samples.

Results

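Aminoacyl-tRNA synthetases attach each amino acid to its tRNA, and their mRNAs were measured in Huh7 cells, a human hepatoma line, that had lost the RNA-binding proteins TTP and BRF1. The module was defined by gene symbol and comprised 41 of the 42169 gene rows in the count table. It held 19 cytosolic synthetases or synthetase subunits, 2 enzymes that serve both compartments (GARS and KARS), 17 mitochondrial synthetases and the 3 scaffold proteins of the multisynthetase complex (AIMP1, AIMP2 and EEF1E1). The Brf1/TTP DKO cells were clone 18 and the control cells, whose genotype is labelled WT, were clone 1, with 2 libraries of each clone. Both clones were kept in DMSO for 3 h, followed by 10 min with 5 µg/ml of the transcription inhibitor actinomycin D. Each genotype was thus represented by 1 clone, and the effects of clone and genotype cannot be told apart. Whether the 2 libraries of 1 clone stem from separate cultures is not stated in the labels, and the p-values therefore reflect nothing more than how much these libraries vary.

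Cytosolic synthetases charge the tRNAs used by cytosolic ribosomes, and a separate, nuclear-encoded set charges the tRNAs of mitochondria, where the mitochondrial genome's proteins are made. Several cytosolic enzymes assemble with AIMP1, AIMP2 and EEF1E1 (also called AIMP3) into the multisynthetase complex. Under amino acid shortage or endoplasmic reticulum stress the transcription factor ATF4 raises many cytosolic synthetase genes through C/EBP-ATF response elements in their promoters. TTP, encoded by ZFP36, and BRF1, here the product of ZFP36L1, bind AU-rich elements in 3′ untranslated regions (UTRs) and promote deadenylation and decay of the mRNA.

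The sequences below are shown because they hold the letters that the proteins named above are known to read: the AU-rich heptamer of TTP and BRF1, and the core of the ATF4 response element. The heptamer UAUUUAU, searched on the mRNA strand of the longest annotated 3′ UTR of each gene (GENCODE 29 transcripts), was found in 6 of 41 members. Each window is given 5′ to 3′ with the heptamer in capitals and with its distance in bases from the stop codon where a gene holds several.
FARSA: cagugaccuugUAUUUAUgaggccucugu
TARS: augugguucagUAUUUAUcuuuacaguuu
EARS2: aguagacaauaUAUUUAUuuuguccaggg
WARS2: uugaccugauuUAUUUAUuguacaagagc
AIMP1: gaauuaaauuuUAUUUAUuuaaauccaug
EEF1E1 at 332: acauauuuggcUAUUUAUuaaccucucuu
EEF1E1 at 382: ccccuuauggaUAUUUAUgguaguuuguu
EEF1E1 at 460: uuguuuuaaaaUAUUUAUgugagcuagua
The longer nonamer UUAUUUAUU, which contains the heptamer, was present in WARS2 and AIMP1 and in no EEF1E1 site.

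The core TGATGNAA of the C/EBP-ATF response element was searched on both strands of RefSeq promoter windows (GRCh38.p14, 250 bases before to 50 after a gene's start), which were matched for 33 of the 41 members. Of these, 8 held it (24.2%), against 4.46% of all 27305 genes with a window, each gene counted once when any of its windows held it. The windows are given 5′ to 3′ on the strand that carries the core, with the core in capitals.
TARS, chr5:33440957-33440984, minus strand: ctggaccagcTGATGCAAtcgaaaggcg
GARS, chr7:30594835-30594862, minus strand: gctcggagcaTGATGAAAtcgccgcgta
IARS, chr9:92293693-92293720, plus strand: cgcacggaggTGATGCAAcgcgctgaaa
CARS, chr11:3057408-3057435, plus strand: tcctagaatcTGATGCAAccgccgcccc
YARS2, chr12:32756077-32756104, minus strand: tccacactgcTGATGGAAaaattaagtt
MARS, chr12:57488054-57488081, minus strand: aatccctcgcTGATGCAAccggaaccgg
AARS, chr16:70289676-70289703, plus strand: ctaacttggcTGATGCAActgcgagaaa
NARS, chr18:57621805-57621832, minus strand: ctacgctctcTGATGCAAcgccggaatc
Of these 8 genes, 7 are in the list of 12 cytosolic and dual synthetases that textbooks name as ATF4 targets, and the other is the mitochondrial YARS2. LARS and YARS, also among the 12, had no matched window and were not searched.

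Gene counts totalled 10271428 and 16430228 in the DKO libraries, against 9685798 and 12507263 in the control libraries, and 3 counts corresponded to between 0.183 and 0.310 CPM (counts scaled to the total of the library). Transcripts of the mitochondrial genome took 3.59% and 1.16% of gene counts in the DKO libraries, against 2.53% and 0.448% in the control libraries. ZFP36 mRNA had 37.5 and 36.2 CPM in DKO, against 30.0 and 23.3 CPM in control, and ZFP36L1 mRNA had 147 and 118 CPM in DKO, against 135 and 109 CPM in control; neither passed the test (edgeR quasi-likelihood, Benjamini-Hochberg adjusted p = 0.207 and 0.775). An inactivating mutation need not lower an mRNA, so these levels do not check the genotype. All 13 hepatocyte markers passed the filter on low counts and their summed level was 26617 to 29887 CPM over the 4 libraries, with AHSG and TTR higher and AFP lower in DKO. Markers of other cell types summed to 37.97 and 41.20 CPM in DKO, against 19.3 and 23.3 CPM in control, with VWF, CDH5 and KRT5 at 0 counts in every library. Of the 10 such markers 4 were tested: PECAM1 and LYVE1 were higher in DKO, and COL3A1 (log2 fold change -0.73) and COL1A1 (-0.21) did not pass. PECAM1 carried the difference, since the other 9 markers summed to 11.1 and 12.6 CPM in DKO, against 11.7 and 17.1 CPM in control; their part in the results was not tested.

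All 41 members passed the filter on low counts, and relative to the other genes (TMM scaling) the median of the module was close to 0. The median log2 fold change of DKO over control was -0.03 over the members, against 0.00 over the 13359 genes tested, with 19 members above 0 and 22 below it. With ERCC totals the medians were -0.76 over the members and -0.68 over all genes, 18 of those 19 members were below 0, and no member passed the edgeR test; leaving out 1 library put the members' median between -0.14 and 0.12. With the edgeR quasi-likelihood test, 2 members were lower in DKO and 0 were higher at an adjusted p under 0.05, which is 4.88% of the members. Over all genes tested, 5.37% passed in either direction, 2.24% as higher and 3.14% as lower, so the share of members that passed was close to the background. At an unadjusted p under 0.05 the edgeR test gave 2 higher and 4 lower members of 41. The same threshold gave 1279 higher and 1414 lower genes of the 13359 tested. At an adjusted p under 0.05 DESeq2 called 0 members as higher and limma-voom 1, EEF1E1. In 8 members both DKO libraries had a CPM above that of either control library and in 13 members below it, together 51.2% of the module, while 49.9% of all tested genes did not overlap (23.7% above and 26.2% below). The 50 tested genes around a member on its chromosome had a median between -0.20 and 0.20 for 33 of the members. It was at or below -0.20 for QARS, TARS, YARS, TARS2 and LARS2, and above 0.20 for MARS (0.366), NARS2 (0.346) and IARS2 (0.202). In bulk RNA, a smaller number of cells with a transcript and a smaller amount of it per cell cannot be told apart.

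**Figure D1:**
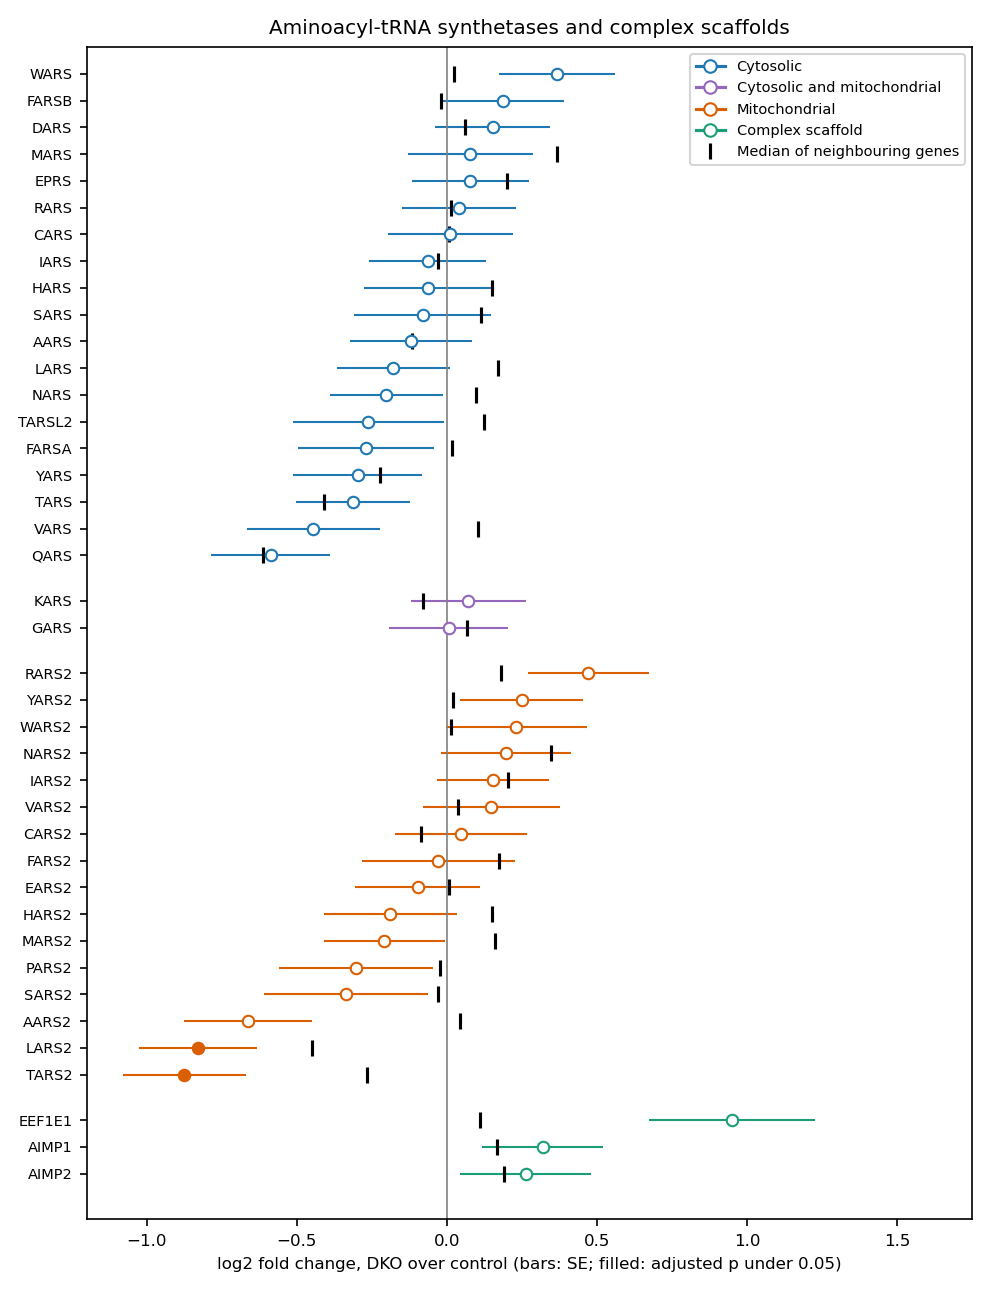
Log2 fold change of DKO over control for 40 of the 41 members (points, with SE as bars), grouped by compartment, with the median of the 50 neighbouring tested genes on the chromosome as a black tick. TARS2 at -0.87 and LARS2 at -0.83, the filled points, passed the threshold, and EEF1E1 at 0.95 is the highest point.

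Summed over the 41 genes, the module reached 4144 and 4659 CPM in the DKO libraries, against 4535 and 4950.5 CPM in the control libraries. The ranges overlapped, and within each clone the second library had the higher sum. The 19 cytosolic genes summed to 2929 and 3365 CPM in DKO, against 3316 and 3678.5 CPM in control, again with overlapping ranges. The 17 mitochondrial synthetases summed to 665 and 682 CPM in DKO, against 694 and 706 CPM in control, so that both DKO libraries were slightly below both control libraries. The 3 scaffold genes went the other way, with 121 and 123 CPM in DKO, against 93.3 and 97.1 CPM in control. An exact two-sided permutation test of 2 libraries against 2 cannot give a p under 0.333 for any such sum. The mitochondrial RNA share, too, differed more between the libraries of a clone than between the clones, and its part in these sums was not tested.

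Among the mitochondrial enzymes, the mRNAs of the threonyl and leucyl synthetases were lower in DKO. TARS2, which charges mitochondrial tRNA with threonine (chromosome 1, 150487364 to 150507609, hg38), had 19.9 and 20.9 CPM in the DKO libraries, against 37.99 and 37.50 CPM in the control libraries. Libraries of the same clone were nearly equal, and the clones were far apart. The mean was 20.4 ± 0.76 CPM in DKO and 37.7 ± 0.35 CPM in control (SD, n = 2 each), a ratio of 0.540; the log2 fold change was -0.87 ± 0.21 (SE; edgeR adjusted p = 0.0227).

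LARS2, the mitochondrial leucyl-tRNA synthetase (chromosome 3, 45388506 to 45549421), had 28.9 and 30.5 CPM in the DKO libraries, against 52.2 and 54.1 CPM in the control libraries. Here too the spread within a clone was small beside the gap between clones. The mean was 29.7 ± 1.12 CPM in DKO and 53.2 ± 1.33 CPM in control (SD, n = 2 each), a ratio of 0.559; the log2 fold change was -0.83 ± 0.20 (SE; edgeR adjusted p = 0.0236). The 50 tested genes nearest to LARS2 on its chromosome had a median log2 fold change of -0.45, and 10 of them were lower in DKO and 0 higher at the same threshold. Around TARS2 the median was -0.27, with 3 neighbours lower and 0 higher. The part of the chromosomal segment in either change was not tested.

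Both log2 fold changes kept their size whichever library was left out, but neither passed without one of the DKO libraries. In such fits the clone left with 1 library is assumed to vary like the other clone, whose libraries alone give the spread. Of all genes, 1.68% passed without DKO replicate 1, 1.61% without DKO replicate 2, 15.6% without control replicate 1 and 5.35% without control replicate 2. TARS2 was at -0.82 without DKO replicate 1 (edgeR adjusted p = 0.338) and at -0.94 without DKO replicate 2 (edgeR adjusted p = 0.229). LARS2 was at -0.77 and -0.89 in the same fits (edgeR adjusted p = 0.371 and 0.250). Over all the alternatives the adjusted p ran between 1.15e-07 and 0.338 for TARS2 and between 3.55e-08 and 0.371 for LARS2. When the ERCC spike-in RNA set the library sizes, the median of all tested genes moved to -0.68 and TARS2 and LARS2 to -1.57 and -1.53, and neither passed (edgeR adjusted p = 0.0824 and 0.0936).

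AARS2, the mitochondrial alanyl-tRNA synthetase (chromosome 6, 44299654 to 44313326), had 32.3 and 29.8 CPM in DKO, against 42.2 and 56.3 CPM in control. The DKO libraries were below both control libraries, which differed from each other more than the DKO libraries did. At -0.66 ± 0.21 (log2 fold change, SE) it missed the threshold (edgeR adjusted p = 0.0854), and its neighbours had a median of 0.05. Leaving out control replicate 1 took it to -0.89 and past the threshold (edgeR adjusted p = 0.00149, within a range of 2.43e-05 to 0.542 over the alternatives), where 15.6% of all genes passed.

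At the other end of the mitochondrial set stood the arginyl, tyrosyl and tryptophanyl enzymes, none of which passed the test. RARS2, which charges mitochondrial tRNA with arginine, had 61.1 and 58.2 CPM in DKO, against 50.2 and 36.9 CPM in control. The DKO libraries lay above both control libraries, and control replicate 2 was the lowest of the 4. The log2 fold change was 0.47 (SE 0.20, edgeR adjusted p = 0.202), it was 0.67 without control replicate 1, where it passed together with 15.6% of all genes (edgeR adjusted p = 0.0363, within a range of 0.00165 to 0.808 over the alternatives), and -0.17 with ERCC totals. YARS2 had 30.7 and 34.9 CPM in DKO, against 28.0 and 27.7 CPM in control, and WARS2 had 15.9 and 12.8 CPM in DKO, against 12.2 and 12.3 CPM in control. Both sets of libraries were separated, at log2 fold changes of 0.25 and 0.23, which became -0.45 and -0.43 with ERCC totals.

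The other 11 mitochondrial members ranged between -0.34 for SARS2 and 0.20 for NARS2. PARS2, which charges mitochondrial tRNA with proline, had 6.82 and 7.61 CPM in DKO, against 8.88 and 9.11 CPM in control, a log2 fold change of -0.30. SARS2 had 6.52 and 10.3 CPM in DKO, against 10.8 and 10.9 CPM in control, and the distance between its DKO libraries exceeded the gap to the controls. Of the exon bases of SARS2, 46.2% are also annotated to the gene AC011455.2 on the same strand, so its counts are uncertain. EARS2, the mitochondrial glutamyl enzyme, which also charges the mitochondrial glutamine tRNA with glutamate before an amidotransferase corrects it, differed by -0.10.

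**Figure D2:**
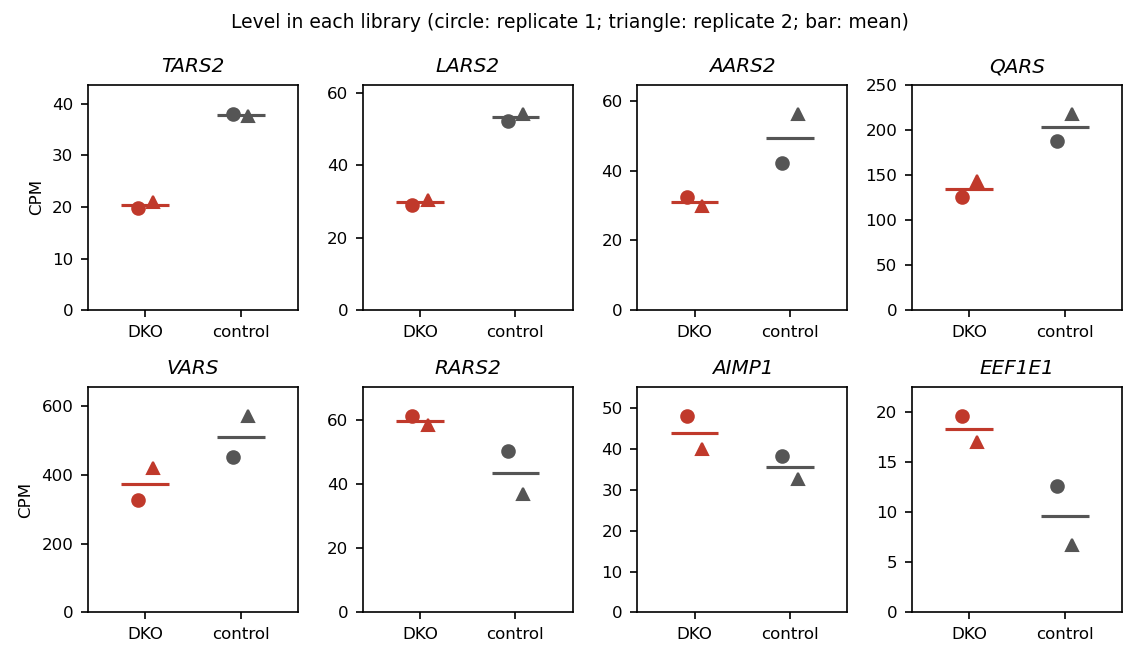
CPM of 8 members in each library, with DKO left of control in every panel, replicate 1 as a circle, replicate 2 as a triangle and the mean as a bar; each axis starts at 0. The TARS2 and LARS2 libraries of a clone nearly coincide, while the 2 control libraries of EEF1E1 stand at 12.6 and 6.72 CPM.

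None of the 19 cytosolic and 2 dual enzymes passed the test, and 12 of the 21 had a negative log2 fold change; DESeq2 and limma-voom also called 0 at an adjusted p under 0.05, and at an unadjusted p under 0.05 the edgeR test gave 1, QARS. QARS, the glutaminyl-tRNA synthetase of the multisynthetase complex (chromosome 3, 49095932 to 49105135), had 126 and 143 CPM in DKO, against 188 and 218 CPM in control. The DKO libraries were below both control libraries. The log2 fold change was -0.59 (SE 0.20, edgeR adjusted p = 0.0998), and the neighbours of QARS had a median of -0.61, with 14 lower and 1 higher. QARS lies on the same chromosome arm as LARS2, and its value was close to that of its neighbours. Leaving out control replicate 1 took it to -0.72 and past the threshold (edgeR adjusted p = 0.0164, within a range of 2.13e-05 to 0.734 over the alternatives), in the fit where 15.6% of all genes passed.

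VARS, the valyl-tRNA synthetase (chromosome 6, 31777518 to 31795953), had 326 and 418 CPM in DKO, against 451 and 570 CPM in control. The libraries were separated, although DKO replicate 2 and control replicate 1 were close. Its log2 fold change was -0.45 (SE 0.22, edgeR adjusted p = 0.273), with a neighbour median of 0.10. TARS, the cytosolic partner of TARS2, had 135 and 135 CPM in DKO, against 162 and 177 CPM in control, which is -0.31 ± 0.19 as log2 fold change (SE; edgeR adjusted p = 0.377) beside a neighbour median of -0.41, with 9 of the neighbours lower.

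WARS, the tryptophanyl enzyme and a gene known to respond to interferon gamma, had 58.1 and 68.7 CPM in DKO, against 50.6 and 48.7 CPM in control. This was the highest cytosolic log2 fold change, 0.37 (SE 0.19, edgeR adjusted p = 0.309), and the one cytosolic member whose DKO libraries were higher than both controls; it was -0.33 with ERCC totals. FARSB, the beta subunit of the phenylalanyl enzyme, had 82.9 and 81.3 CPM in DKO, against 84.6 and 61.3 CPM in control, and DARS, the aspartyl enzyme, had 65.7 and 72.5 CPM in DKO, against 66.9 and 58.7 CPM in control. Both overlapped between the clones, at 0.19 and 0.15. FARSA, the alpha subunit that works in the same tetramer as FARSB, was at -0.27, with 111 and 142 CPM in DKO, against 125 and 181 CPM in control. GARS and KARS, the enzymes for glycine and lysine in both compartments, were at 0.01 and 0.07, and each overlapped between the clones.

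The remaining 13 cytosolic enzymes ranged between -0.30 for YARS, the tyrosyl enzyme, and 0.08 for MARS, the methionyl enzyme, with FARSA included. NARS, the asparaginyl enzyme, had 157 and 156 CPM in DKO, against 174 and 188 CPM in control, and LARS, the cytosolic partner of LARS2, had 140 and 136 CPM in DKO, against 168 and 147 CPM in control. In both, as in IARS and TARSL2, the DKO libraries were below both controls, by margins that did not pass (log2 fold changes of -0.20 for NARS, -0.18 for LARS, -0.06 for IARS and -0.26 for TARSL2). EPRS, which joins the glutamyl and prolyl enzymes in 1 protein, had 334 and 368 CPM in DKO, against 330 and 340 CPM in control, and overlapped at 0.08. AARS, CARS, HARS, MARS, RARS, SARS and YARS overlapped between the clones as well.

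The 12 synthetases known as ATF4 targets had a median log2 fold change of -0.07, with 5 above 0 and 7 below, and 0 passed the edgeR test in either direction (0 also at an unadjusted p under 0.05, and 0 with DESeq2 at an adjusted p under 0.05). The 9 other cytosolic and dual enzymes had a median of -0.06. The 8 genes whose promoter windows hold the TGATGNAA core, printed above, had a median of -0.03 and ranged between -0.31 for TARS and 0.25 for YARS2, with 4 above 0. ATF4 mRNA itself had 228 and 269 CPM in DKO, against 182 and 312 CPM in control, with the DKO libraries between the control ones, and differed by 0.01 (edgeR adjusted p = 0.984). DDIT3, another ATF4 target, whose exons cover 5.05% of the exon bases of MARS on the opposite strand, was at 0.52 (edgeR adjusted p = 0.279). By catalytic fold, the 18 class I enzymes had a median of 0.03 with 1 lower (LARS2), and the 19 class II enzymes a median of -0.12 with 1 lower (TARS2).

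The mRNAs of all 3 scaffold proteins of the multisynthetase complex had positive log2 fold changes, with a median of 0.32, but none passed the test. With ERCC totals AIMP1 and AIMP2 were at -0.33 and -0.49. EEF1E1, which anchors the methionyl enzyme in the complex (chromosome 6, 8073360 to 8102578), had 19.6 and 17.0 CPM in DKO, against 12.6 and 6.72 CPM in control. The DKO libraries were above both control libraries, and control replicate 2 stood well below control replicate 1. These values rest on 201 and 280 counts in DKO, against 122 and 84 counts in control. The mean was 18.3 ± 1.79 CPM in DKO and 9.66 ± 4.16 CPM in control (SD, n = 2 each), a ratio of 1.90; the log2 fold change was 0.95 ± 0.28 (SE; edgeR adjusted p = 0.0581).

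The value of EEF1E1 depended on the control library left out and on the scaling. Without control replicate 1 the log2 fold change was 1.41 (edgeR adjusted p = 3.89e-05, in a fit where 15.6% of all genes passed), and without control replicate 2 it was 0.57 (edgeR adjusted p = 0.251). It passed with limma-voom (adjusted p = 0.0469) and with no filter on low counts (edgeR adjusted p = 0.00540), and with ERCC totals it was 0.35; over all alternatives the adjusted p ran between 7.79e-07 and 0.623. Its 50 neighbours had a median of 0.11. Of its exon bases, 18.7% are shared with the readthrough gene EEF1E1-BLOC1S5, which had 0 counts in every library, and the rule for counting reads in shared exons is not known.

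AIMP1, whose processed form is a secreted cytokine, had 48.0 and 39.9 CPM in DKO, against 38.3 and 32.6 CPM in control, which is 0.32 ± 0.20 as log2 fold change (SE; edgeR adjusted p = 0.402). The libraries were separated, although DKO replicate 2 and control replicate 1 were close. AIMP2, which bridges several enzymes of the complex, had 53.4 and 66.2 CPM in DKO, against 42.4 and 57.8 CPM in control, and overlapped between the clones at 0.26 (SE 0.22, edgeR adjusted p = 0.543). Its exons overlap those of EIF2AK1 on the opposite strand over 28.9% of their bases. The 8 synthetases in the complex had a median of 0.06, between -0.59 for QARS and 0.15 for DARS, while the 13 cytosolic and dual enzymes outside it had a median of -0.12.

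**Figure D3:**
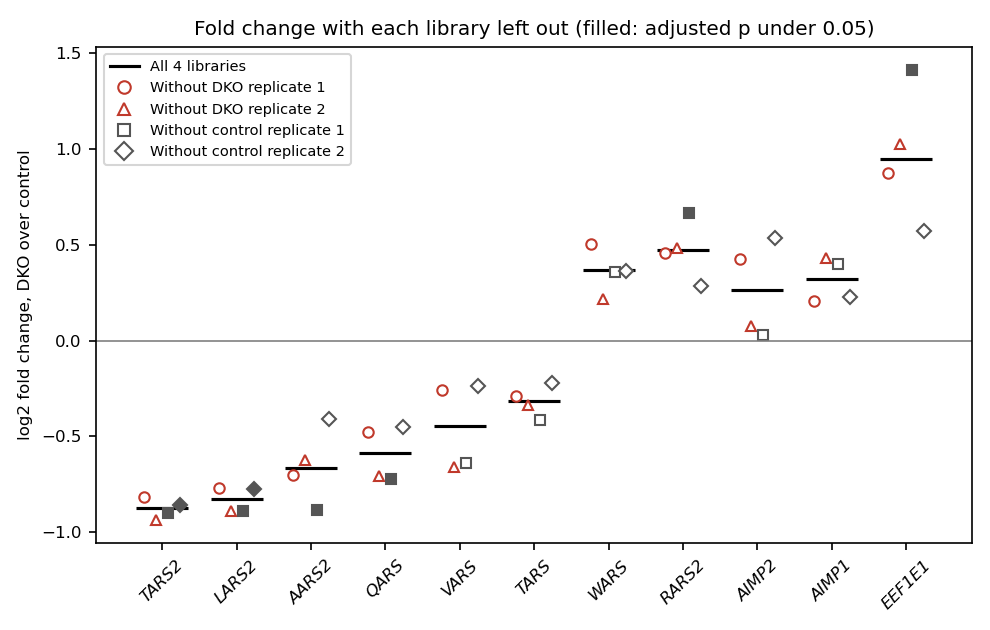
Log2 fold change of DKO over control for 11 members with all 4 libraries (black line) and with each library left out (symbols; filled where the adjusted p was under 0.05). TARS2 and LARS2 keep their size in every fit, and EEF1E1 ranges between 0.57 and 1.41.

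The UAUUUAU heptamer was present in 6 of 41 members (14.6%), against 4296 of 11889 tested protein-coding genes (36.1%). The longest 3′ UTR had a median of 639 bases in the members, against 1414 bases in those genes. The 6 members with the heptamer had a median log2 fold change of 0.07, and the 35 without it -0.03. Over all tested protein-coding genes the medians were 0.04 with the heptamer and -0.03 without it. TARS2 and LARS2, the members that passed the test, hold none in their longest 3′ UTR.

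EEF1E1, the member with the highest log2 fold change, was also the one with several heptamers, printed above, in a 3′ UTR of 495 bases. Among all tested protein-coding genes, 851 (7.16%) had at least 3 heptamers, with a median 3′ UTR of 4505 bases and a median log2 fold change of 0.08. Of the 2410 genes with a 3′ UTR of at most 500 bases, 4 had at least 3 heptamers (0.166%). The length limit was chosen after the EEF1E1 value was known, and 3 is the number of heptamers that EEF1E1 holds. Its place among the 4 was therefore fixed in advance. The 4 genes were EEF1E1 at 0.95, GDF15 at 0.59, PLK3 at 0.55 and FRS3 at 0.10, and none passed the edgeR test in either direction. The part of the heptamers in these values was not tested. The remaining members with 1 heptamer were at 0.32 (AIMP1), 0.23 (WARS2), -0.10 (EARS2), -0.27 (FARSA) and -0.31 (TARS).

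Other promoter motifs were searched on both strands of the same windows. The E-box CACGTG was present in 5 of 33 members (15.2%), against 8.77% of all genes with a window, and CCAAT in 19 (57.6%), against 39.7%. TARS2, EEF1E1, QARS and RARS2 are among the CCAAT-bearing members, so the motif occurs in members at both ends of the range of fold changes.

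The mRNAs of cytosolic enzymes were more abundant than those of mitochondrial ones. Per kilobase of exon, the median level of the 21 cytosolic and dual enzymes was 4.78 times that of the 17 mitochondrial enzymes in each DKO library, against 4.92 and 5.07 times in the control libraries. AARS, the alanyl enzyme, had the highest level, with 82.2 CPM per kilobase in DKO and 90.0 in control, and TARSL2, a threonyl enzyme related to TARS, the lowest of the cytosolic set, with 1.94 CPM per kilobase in DKO and 2.33 in control. In mitochondria the isoleucyl enzyme IARS2 was highest, with 53.0 CPM per kilobase in DKO and 48.0 in control, and the cysteinyl enzyme CARS2 lowest, with 2.02 in DKO and 1.98 in control. CARS2 was the lowest of the 41 members by this measure. Its length counts 10460 exon bases from all annotated transcripts together, which lowers a level per kilobase. Per kilobase of the longest transcript CARS2 was not the lowest, with a mean over the 4 libraries of 5.94 CPM, against 2.78 for FARS2 and 2.71 for TARSL2.

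In all 17 pairs of a mitochondrial enzyme and the cytosolic enzyme for the same amino acid, the geometric mean of the cytosolic level per kilobase over the 4 libraries was the higher. The excess ranged between 1.01-fold for IARS over IARS2 and 25.4-fold for FARSA over FARS2, with a median of 3.84-fold. For phenylalanine only the FARSA subunit entered the pair. The mean level over the 4 libraries was 57.4 CPM per kilobase for FARSA, 23.0 for FARSB and 2.24 for FARS2. The excess would thus be smaller with FARSB as the partner. IARS2 was above IARS in both DKO libraries, by 0.16 and 0.04 on the log2 scale, and below it in both control libraries, at -0.06 and -0.18. Which of the 2 is higher depends on the length used. Per kilobase of the longest transcript, the mean over the 4 libraries was 80.7 CPM for IARS and 59.1 CPM for IARS2. In 9 of the 17 pairs both log2 fold changes had the same sign, a tally that includes values near 0.

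The log2 fold changes of the partners differed most in the leucyl, valyl and threonyl pairs. The log2 ratio of LARS2 to LARS was -2.02 and -1.91 in the DKO libraries, against -1.44 and -1.19 in the control libraries. That of TARS2 to TARS was -2.28 and -2.21 in DKO, against -1.60 and -1.75 in control. That of VARS2 to VARS was -3.73 and -3.84 in DKO, against -4.49 and -4.31 in control. In each of these 3 pairs the DKO and control libraries were separated, towards the cytosolic enzyme for leucine and threonine and towards the mitochondrial enzyme for valine. The 3 pairs were picked for the size of this difference, and separation was not particular to them. The pairs of AARS2, PARS2, EARS2, IARS2, NARS2, RARS2 and YARS2 were separated as well. VARS2 shares 22.0% of its exon bases with GTF2H4 on the same strand, so its level is uncertain.

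**Figure D4:**
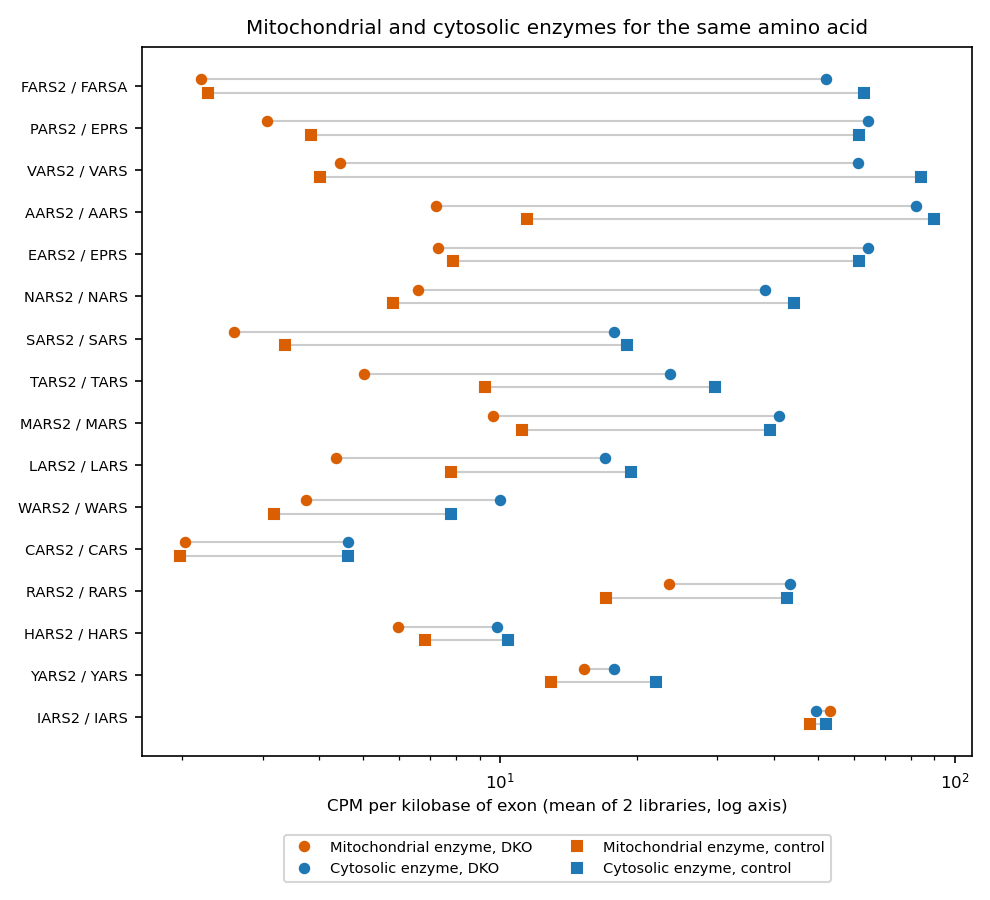
Level of each mitochondrial synthetase and its cytosolic partner as mean CPM per kilobase of exon over 2 libraries (log axis), for DKO and control, with 16 of the 17 pairs ordered by the excess of the cytosolic enzyme. The cytosolic enzyme is at or right of the mitochondrial one in each pair shown except IARS2 in DKO, and the excess is 25.4-fold for FARSA over FARS2.

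Beyond the synthetases, 4 lists covered the other steps of the tRNA pathway, and 5 of their 100 tested genes passed (5%), close to the 5.37% of all genes. Of 15 tested genes that transfer, edit or hydrolyse aminoacyl-tRNA, 1 rose: PTRHD1, a peptidyl-tRNA hydrolase family member, had 19.6 and 25.5 CPM in DKO, against 12.6 and 12.7 CPM in control (log2 fold change 0.85, edgeR adjusted p = 0.0474). Of 10 elongation factors, 1 rose: EEF1A2, the muscle and nerve form of the factor that brings charged tRNA to the ribosome, had 8.57 and 10.7 CPM in DKO, against 3.30 and 4.24 CPM in control (1.36, edgeR adjusted p = 0.0138). In both genes the lowest DKO library was above the highest control library. The list medians were 0.07 and -0.01.

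Of 28 tRNA maturation and export genes, 1 fell: POP1, a subunit of RNase P, which trims the 5′ end of tRNA precursors, was at -0.72 (edgeR adjusted p = 0.0437) with a list median of 0.05. Of 47 tRNA modification genes, 2 fell and 33 had a negative log2 fold change, against 6660 of all 13359 genes tested. The list median was -0.11, and the list was not tested as a set. NSUN2, which methylates cytosines in tRNA, had 76.8 and 77.1 CPM in DKO, against 130 and 165 CPM in control (-0.93, edgeR adjusted p = 0.0149), beside a neighbour median of -0.62. TRMT12, an enzyme of wybutosine synthesis, had 7.59 and 7.67 CPM in DKO, against 14.4 and 13.8 CPM in control (-0.87, edgeR adjusted p = 0.0474), beside a neighbour median of -0.50. The DKO libraries of both genes were nearly equal and below both controls.

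With 1 DKO library left out, when few genes of any kind passed (1.68% and 1.61%), these fold changes kept their direction. NSUN2 (-0.91 and -0.96), POP1 (-0.66 and -0.79), TRMT12 (-0.84 and -0.90) and PTRHD1 (1.04 and 0.62) did not pass without DKO replicate 1 or without DKO replicate 2, and EEF1A2 did not pass without DKO replicate 2 (1.16). With ERCC totals none of the 5 passed the edgeR test. BRF1, the gene with that symbol, encodes an RNA polymerase III factor that transcribes tRNA genes and is not the deleted protein. The mRNA of this gene had 13.5 and 15.6 CPM in DKO, against 16.8 and 23.3 CPM in control. It was at -0.46 (edgeR adjusted p = 0.311) with all libraries. The value was -0.70 when control replicate 1, the control library nearer to the DKO ones, was left out. EEF1G is listed at 0 in every library, and 99.9% of its exon bases are shared with AP002990.1 on the same strand, so that 0 is no measure of its expression.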

How the data were processed

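The deposited data were raw read counts for 42261 features, 92 of them ERCC spike-ins, which the authors left unnormalized. Per the labels' protocols, spike-ins were added to 1 µg of total RNA ahead of rRNA depletion, the library kit was directional, and sequencing was single-end with 80 bases. Per the submitters' processing notes, the build was hg38 and the tools included STAR 2.5.3a, Subread 1.6.3 with featureCounts, and DESeq2. Neither the annotation used for counting nor its strand setting is given in these sources, so genes with shared exons on either strand are uncertain.

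The test was edgeR 4.0.16 in R 4.3.3 on the gene counts of all 4 libraries. It used filterByExpr, TMM factors, and the quasi-likelihood test with clone as the only term. Adjustment was Benjamini-Hochberg over 13359 genes with a threshold of 0.05. The fit was run on counts simulated as independent libraries, which cannot check the single clone per genotype or whether the real libraries are independent. CPM scale counts to the library's total of gene counts, and the SE is the log2 fold change divided by the root of its F statistic. Levels per kilobase divide by the bases of all annotated exons (GENCODE 29, to which 40718 gene rows matched). Neighbours are the 25 tested genes on each side of a member, where present. Libraries of a clone were compared before averaging and differed beyond sampling noise (chi-square per degree of freedom 27.1 for DKO and 33.6 for control).

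The members, the gene lists and the tests were chosen with earlier results of these data known. Named members are those past the threshold, the 3 highest and the 3 lowest in log2 fold change among cytosolic and dual and among mitochondrial enzymes, the scaffolds, and the highest and lowest levels of each compartment; of other lists, genes past the threshold, and ZFP36, ZFP36L1 and BRF1. Further members are named for their sequence, partner or shared exons. Alternatives were DESeq2 1.42.0, RLE factors, ERCC totals, no filter, limma-voom (limma 3.58.1), the replicate number as a block, the longest transcript as length, and each library left out. No sample was left out of the main fit. The values of 1 member enter the counts and medians but are not reported here.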

Additional observations from a re-analysis of the deposited data

How the results depend on the processing

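With each library left out in turn, the number of members called ranged between 0 and 6, of genes called between 218 and 2172 (718 with all 4 libraries), of other tRNA pathway genes called between 0 and 22, and the median log2 fold change of the members between -0.14 and 0.12. The fit without control replicate 1 called the most members and also the most genes. Its called members, with log2 fold changes, were AARS2 (-0.89), EEF1E1 (1.41), LARS2 (-0.89), QARS (-0.72), RARS2 (0.67) and TARS2 (-0.90). Of the 41 members, 25 kept the sign of their log2 fold change in all 4 of these fits. A further 15 ranged across 0: AARS between -0.29 and 0.030, CARS -0.16 and 0.20, CARS2 -0.11 and 0.19, EARS2 -0.26 and 0.073, EPRS -0.016 and 0.17, FARS2 -0.31 and 0.19, FARSA -0.54 and 0.052, FARSB -0.0067 and 0.40, GARS -0.14 and 0.15, HARS -0.32 and 0.15, KARS -0.044 and 0.18, MARS -0.11 and 0.26, RARS -0.057 and 0.13, SARS -0.36 and 0.20, and VARS2 -0.11 and 0.47. ZFP36L1 ranged between -0.0099 and 0.26.

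ERCC totals as library sizes called 329 genes, 0 members (0 also of the other tRNA pathway genes), and gave a median of -0.76 for the members, against -0.68 for all genes. By that scaling the sign turned for AIMP1 (-0.33), AIMP2 (-0.49), CARS (-0.72), CARS2 (-0.67), DARS (-0.53), EPRS (-0.63), FARSB (-0.45), GARS (-0.72), IARS2 (-0.52), KARS (-0.63), MARS (-0.66), NARS2 (-0.48), RARS (-0.64), RARS2 (-0.17), VARS2 (-0.61), WARS (-0.33), WARS2 (-0.43), YARS2 (-0.45), ZFP36 (-0.17) and ZFP36L1 (-0.50). The cause was not tested. With no filter, 1194 of 22155 genes passed.

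The libraries share replicate numbers, but no label says that a number marks a shared culture or day. With 2 pairs, the main fit did not use the numbers as a pairing, and whether they mark one is not known. Deviations of same-numbered libraries from their clone means correlated at 0.470 over 13359 genes. With the replicate block 4021 genes (30.1%), 9 members (AARS2, EEF1E1, LARS2, QARS, RARS2, TARS, TARS2, VARS and WARS) and 34 other tRNA pathway genes passed. Dividing by the longest transcript in place of all exons set the cytosolic over mitochondrial level ratio at 5.73, against 4.89 ± 0.138 (SD, n = 4 libraries). DESeq2 and RLE factors called the same 2 members as the edgeR test, and limma-voom and no filter added EEF1E1.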
